A study of Mus musculus with 16 samples.

Results

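The genes described here are 10 feedback genes of the fibroblast growth factor (FGF) and ERK pathway, namely the Sprouty genes Spry1, Spry2 and Spry4, the Spred genes Spred1 and Spred2, the phosphatase genes Dusp1, Dusp4 and Dusp6, and the transcription factor genes Etv4 and Etv5. They were picked by symbol from the 24060 genes in the tables, and all 10 were found in all 16 libraries. The set was selected on a lower value of Spry2 in astrocyte ribosome RNA after stress, so that comparison is only described for these genes: no p is given, and a count past the threshold is set beside that of all genes without being read as a result.

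FGFs bind receptor tyrosine kinases on the cell surface, and the signal passes through Ras, Raf and MEK to the kinase ERK. Active ERK turns on genes whose products act back on the pathway: Sprouty and Spred proteins hold back signalling at or above the level of Raf, Dusp proteins remove phosphate from ERK and related kinases, and Etv4 and Etv5 are transcription factors of the ETS family that FGF signalling induces. Astrocytes carry FGF receptors, and Spry2 and its relatives are widely used as readouts of the pathway.

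The study sequenced RNA of the somatosensory cortex of Aldh1l1CreERT2-RiboTag mice on the C57BL/6J background at 3 months of age. In these mice an HA tag is added to the ribosomal protein Rpl22 in cells where the Aldh1l1 promoter drives a tamoxifen-inducible Cre, so the tag marks Aldh1l1-expressing cells, chiefly astrocytes, and no mice without the tag or without tamoxifen were compared. IP is the RNA that came down with anti-HA antibody, and INPUT is the RNA of the cleared lysate, which holds all cell types of the tissue. Each of 4 groups had 4 libraries: naïve IP and naïve INPUT from mice left in the home cage, and stress IP and stress INPUT from mice that swam for 20 min and then recovered for 90 min in the home cage. All mice, naïve ones included, had received tamoxifen. Mice of both sexes were used, 4 per condition by the study's account, and each gave an IP and an INPUT. Neither the sex of a mouse nor the match of an IP to its INPUT is given with the samples. Libraries are named by the number in their label, which runs across all groups.

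Between 16392876 and 25814364 reads per library fell on genes, and 3 reads corresponded to 0.183 CPM (counts scaled to a library total of 1000000) or less. The lowest read count of any of the 10 genes in a library was 35, for Spry1 in stress IP. All 8 astrocyte markers were higher in naïve IP than in naïve INPUT, among them Aldh1l1 (921 against 83.1 CPM), and all 7 neuronal markers were lower, among them Rbfox3 (30.9 against 448 CPM). Of the markers of oligodendrocytes and their precursors, microglia, and endothelial and mural cells, all but Olig1 and Pdgfrb were lower in IP. Pdgfra, a marker of oligodendrocyte precursors, averaged 11.4 CPM in naïve IP, against 67.0 CPM in naïve INPUT. No marker passed the test between stress and naïve in either fraction.

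Promoter sequence was taken from RefSeq on GRCm38.p6, where 7 of the 10 genes matched (Spry4, Dusp4 and Etv4 did not). Spry2, Spred1 and Dusp6 are 3 of the 4 most abundant of the genes per length in naïve IP. In IP after stress Spry2 was lower without overlap, while Spred1 and Dusp6 overlapped with naïve IP. The windows of these 3 genes are shown, chosen with these values known. Each holds the 250 bases before the start site, 5′ to 3′ on the strand of the gene, with capitals for the ETS core GGAAG and for TGACG, the core of a cyclic AMP response element, on either strand.
Spry2: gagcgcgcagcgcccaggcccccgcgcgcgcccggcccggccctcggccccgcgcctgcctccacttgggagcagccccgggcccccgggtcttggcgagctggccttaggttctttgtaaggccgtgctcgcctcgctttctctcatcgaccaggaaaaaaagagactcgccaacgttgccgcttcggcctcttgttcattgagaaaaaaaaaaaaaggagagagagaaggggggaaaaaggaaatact
Spred1: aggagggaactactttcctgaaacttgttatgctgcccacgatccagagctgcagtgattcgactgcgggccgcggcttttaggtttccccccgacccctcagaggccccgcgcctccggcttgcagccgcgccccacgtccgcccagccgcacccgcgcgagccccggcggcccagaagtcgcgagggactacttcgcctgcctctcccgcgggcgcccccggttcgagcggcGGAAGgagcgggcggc
Dusp6: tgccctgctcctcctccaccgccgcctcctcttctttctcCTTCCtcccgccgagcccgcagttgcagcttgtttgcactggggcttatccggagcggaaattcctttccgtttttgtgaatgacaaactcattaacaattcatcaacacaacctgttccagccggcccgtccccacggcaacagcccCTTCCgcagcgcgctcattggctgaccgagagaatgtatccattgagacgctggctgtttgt

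The Spry2 window lies at chr14:105896820-105897069 on the minus strand, the Spred1 window at chr2:117120821-117121070 on the plus strand, and the Dusp6 window at chr10:99262981-99263230 on the plus strand. The letter patterns searched, on both strands, were GGAAG, the longer ETS pattern CCGGAAG that contains it, TGACG, the AP-1 pattern TGANTCA and the GC box GGGCGG. The Spry2 window held none of them. The Spred1 window held 1 match to GGAAG, 16 bases before the start, and 2 GC boxes, and the Dusp6 window held 2 matches to GGAAG, 210 and 62 bases before the start. Among the windows not printed, that of Spred2 held 5 matches to GGAAG and 1 to TGACG, that of Dusp1 held 3 to TGACG and 3 GC boxes, and that of Spry1 held 1 GC box. Etv5 has 2 start sites in the table, one with 3 GC boxes and the other with 2 matches to GGAAG. Over 32851 RefSeq promoter windows of this length, GGAAG occurred in 64.1%, CCGGAAG in 6.91%, TGACG in 17.8%, TGANTCA in 6.75% and GGGCGG in 32.7%. These matches describe letters only.

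Levels can be set against each other only per length, and for that CPM was divided by the exon length of the gene in kilobases (FPKM). In naïve IP the order by FPKM level was Spred1 (78.6 ± 5.33, SD, n = 4), Spry2 (55.2 ± 4.98), Etv5 (31.3 ± 3.36), Dusp6 (22.3 ± 3.12), Etv4 (15.8 ± 2.04), Spred2 (11.1 ± 0.395), Spry4 (5.53 ± 0.672), Dusp1 (2.92 ± 0.542), Dusp4 (1.78 ± 0.328) and Spry1 (1.23 ± 0.289). No neighbours in that order had overlapping libraries. By GENCODE M21 on mm10 these genes lie at chr2:117121374-117182279 (Spred1), chr14:105891947-105896819 (Spry2), chr16:22381309-22439719 (Etv5), chr10:99263231-99267489 (Dusp6), chr11:101769742-101785371 (Etv4), chr11:19924375-20024026 (Spred2), chr18:38586247-38601415 (Spry4), chr17:26505590-26562128 (Dusp1), chr8:34807297-34819894 (Dusp4) and chr3:37639947-37644598 (Spry1), and all are protein coding. In stress IP the order was the same, but Spry2, at 34.8 ± 4.80 FPKM, overlapped with Etv5, at 29.9 ± 0.0647 FPKM. Dusp4 also overlapped with Spry1.

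In naïve INPUT Spred1 again led, at 53.3 ± 2.94 FPKM, and Dusp6 (28.7 ± 5.87), Spry2 (28.5 ± 4.94) and Etv5 (24.7 ± 2.53) followed with overlapping libraries. Etv4, Spry1, Dusp4 and Spry4 lay between 3.29 and 2.80 FPKM and could not be ordered beyond their spread. In stress INPUT Dusp6 (33.0 ± 2.87 FPKM) had no overlap with Spry2 (27.4 ± 1.88) but overlapped with Etv5 (27.3 ± 1.53) by a single library each, while Dusp1, Dusp4, Etv4, Spry1 and Spry4 formed a run of overlapping neighbours from 5.78 down to 2.78 FPKM.

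**Figure D1:**
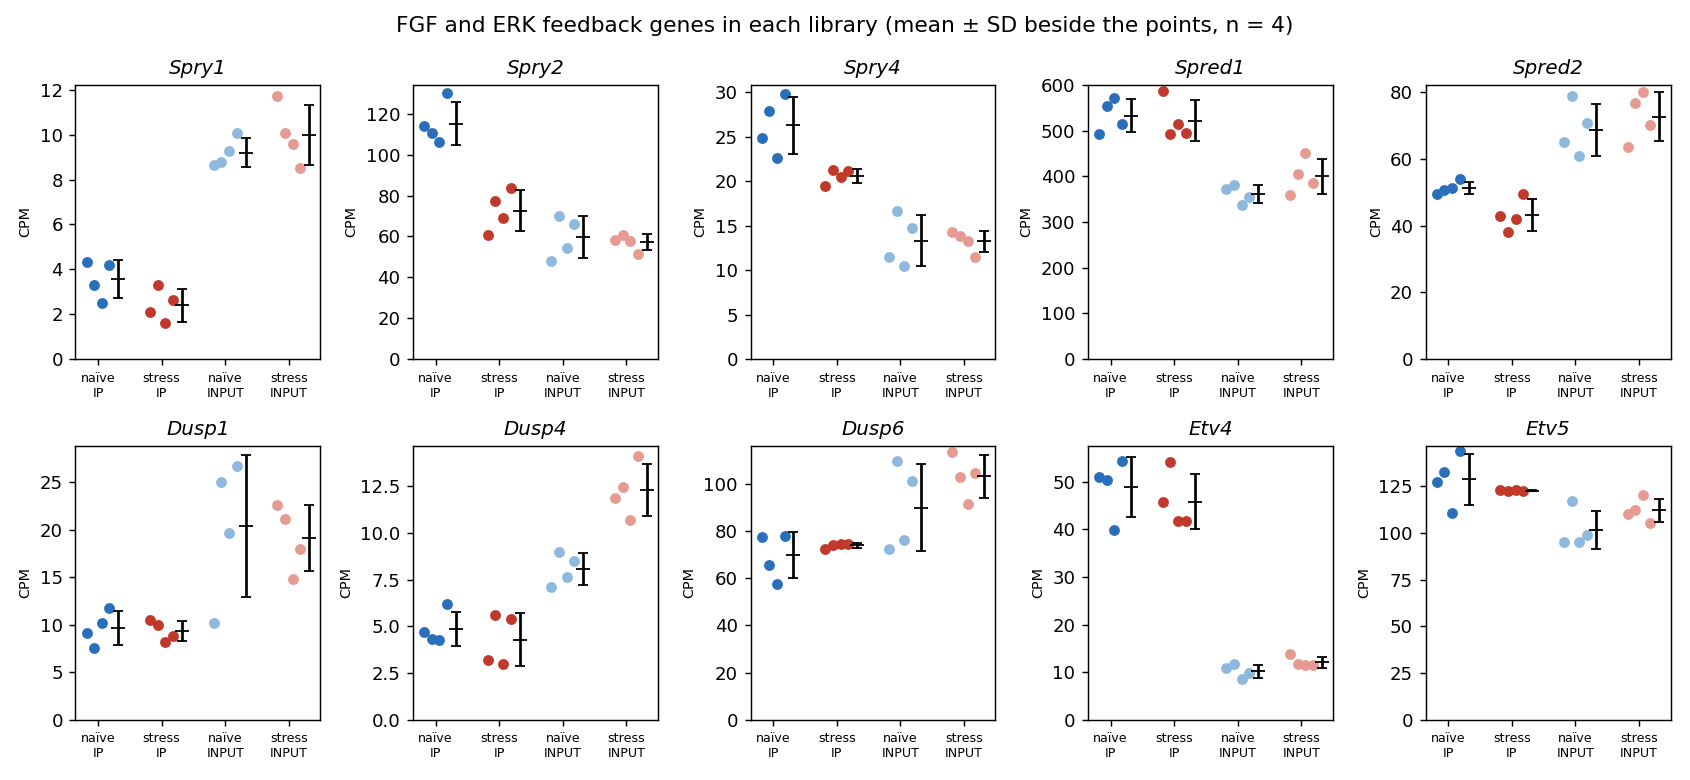
Level of the 10 genes in CPM, from 0, with 1 panel per gene: each point is 1 of the 4 libraries of a group, IP groups first and then INPUT groups, and the bar beside it gives the mean ± SD. Spry2 lay between 106 and 130 CPM in naïve IP and between 60.6 and 83.7 CPM in stress IP, with no such gap in INPUT, whereas Dusp4 was separated by stress in INPUT.

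The first comparison set IP against INPUT in naïve mice and asked which of the genes were richer in RNA on tagged ribosomes than in the tissue. All 10 passed the test, 5 higher (Etv4, Spry4, Spry2, Spred1 and Etv5) and 5 lower (Spry1, Dusp1, Dusp4, Spred2 and Dusp6). Calls were common here: of 13339 genes tested, 23.7% were called higher and 64% lower. CPM are shares of each library, and over all genes the log2 ratios had a median of −0.64, so each ratio is also given relative to that median. The naïve IP libraries also entered the contrast on which Spry2 was chosen, where a high naïve IP value favours that choice, so the p-values of this comparison, that of Spry2 above all, are not free of it. IP and INPUT can differ through the cells tagged as well as through the RNA in each cell, and fewer cells of a type cannot be told apart from less RNA per cell in INPUT.

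The Etv genes were both on the higher side, by very different amounts. Etv4 had 51.1, 50.4, 39.8 and 54.4 CPM in the naïve IP libraries 2, 8, 11 and 13, and 10.8, 11.7, 8.58 and 9.82 CPM in the naïve INPUT libraries 3, 7, 14 and 16. Every IP library was above every INPUT library, a log2 ratio of 2.25 (SE 0.11, limma adjusted p = 3.1e-10), which is 2.88 above the median of all genes. Etv5, its close relative, had 127, 132, 111 and 144 CPM in naïve IP and 95.1, 117, 95.2 and 99.0 CPM in naïve INPUT. Here IP library 11 fell below INPUT library 7, and the log2 ratio was 0.34 (SE 0.09, limma adjusted p = 0.0022), 0.97 above the median.

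The Sprouty genes, inhibitors of receptor tyrosine kinase signalling, were split. Spry2 had 114, 110, 106 and 130 CPM in naïve IP and 47.9, 70.0, 54.1 and 66.2 CPM in naïve INPUT, with no overlap and a log2 ratio of 0.96 (SE 0.11, limma adjusted p = 1.6e-06). Spry4 had 24.9, 27.9, 22.6 and 29.9 CPM in naïve IP and 11.5, 16.6, 10.5 and 14.8 CPM in naïve INPUT, again with no overlap and a log2 ratio of 0.99 (SE 0.14, limma adjusted p = 1.5e-05). The 2 genes lay 1.60 and 1.63 above the median of all genes. Spry1 ran the other way, with 4.31, 3.31, 2.51 and 4.18 CPM in naïve IP against 8.64, 8.77, 9.28 and 10.1 CPM in naïve INPUT. Its log2 ratio was −1.36 (SE 0.17, limma adjusted p = 3.2e-06), below the median of all genes by 0.73, a relative value of −0.73.

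Of the Spred genes, whose products restrain Ras and Raf, Spred1 was higher and Spred2 lower. Spred1 had 493, 555, 571 and 514 CPM in naïve IP and 372, 382, 336 and 355 CPM in naïve INPUT, with a log2 ratio of 0.56 (SE 0.06, limma adjusted p = 1.1e-06), 1.20 above the median. Spred2 had 49.7, 50.9, 51.3 and 54.0 CPM in naïve IP and 65.0, 78.8, 60.8 and 70.8 CPM in naïve INPUT. The libraries of both genes did not overlap between fractions. The log2 ratio of Spred2 was −0.41 (SE 0.08, limma adjusted p = 0.0002), but it lay 0.22 above the median of all genes, and its direction turned to 0.23 with median-ratio scaling and 0.12 with quantile normalization.

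The Dusp genes were all on the lower side as deposited. Dusp1, an immediate-early phosphatase, had 9.10, 7.52, 10.2 and 11.8 CPM in naïve IP and 10.2, 25.1, 19.7 and 26.7 CPM in naïve INPUT, where library 3 reached down into the IP range. Dusp4, a nuclear phosphatase, had 4.70, 4.34, 4.27 and 6.20 CPM in naïve IP and 7.12, 9.01, 7.63 and 8.49 CPM in naïve INPUT. Dusp6, a cytoplasmic phosphatase selective for ERK, had 77.6, 65.8, 57.8 and 77.9 CPM in naïve IP and 72.6, 110, 76.2 and 101 CPM in naïve INPUT. Only Dusp4 had no overlap between the fractions.

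The log2 ratios were −1.0 for Dusp1 (SE 0.25, limma adjusted p = 0.0020), −0.72 for Dusp4 (SE 0.14, limma adjusted p = 0.00032) and −0.36 for Dusp6 (SE 0.13, limma adjusted p = 0.023). Relative to the median of all genes these were −0.36, −0.09 and 0.28. With median-ratio scaling neither Dusp1 (−0.36) nor Dusp4 (−0.09) passed the test and Dusp6 turned to 0.28, and with quantile normalization Dusp4 turned to 0.09 and Dusp6 to 0.17. The call for Dusp6 was also lost when naïve IP library 8 or 11 or naïve INPUT library 7 or 16 was left out, with log2 ratios of −0.33, −0.27, −0.25 and −0.29.

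**Figure D2:**
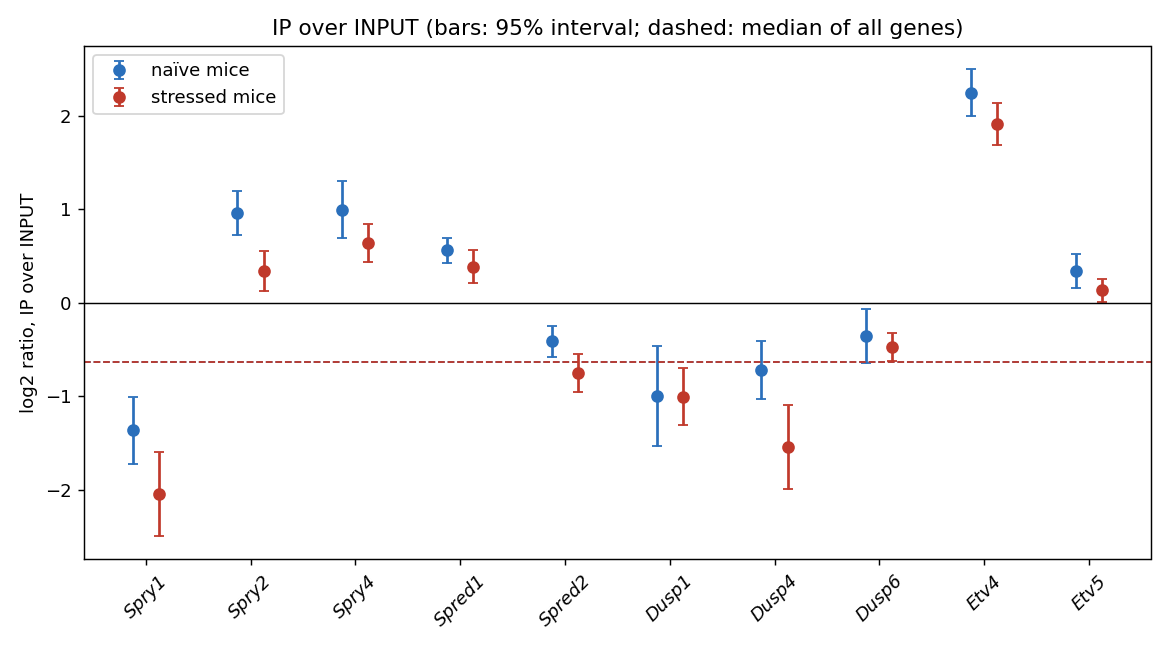
Log2 ratio of IP over INPUT (y axis) of the 10 genes in naïve and stressed mice, with points for the estimate from 4 against 4 libraries, bars for the 95% interval and dashed lines for the median of all genes, which was −0.64 in naïve and −0.63 in stressed mice. Etv4 stood highest in both conditions and Spry1 lowest, and Spred2, Dusp4 and Dusp6 lay below 0 but near the dashed line in naïve mice, where their direction turned with at least one other scaling.

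The same comparison in stressed mice, whose IP libraries also entered the contrast that chose the genes, again had 5 genes higher and 5 lower, and they were the same genes on each side. Of 13333 genes tested, 23.6% were called higher and 62.5% lower, and the median log2 ratio was −0.63. The log2 ratio was 1.91 for Etv4 (SE 0.10), 0.64 for Spry4 (SE 0.09), 0.39 for Spred1 (SE 0.08) and 0.34 for Spry2 (SE 0.10, limma adjusted p = 0.0056). The libraries of Spry2 overlapped between the fractions after stress, from 60.6 to 83.7 CPM in IP against 51.5 to 60.7 CPM in INPUT. Etv5 was at the edge, at 0.13 (SE 0.06, limma adjusted p = 0.045), and lost the call when any one library other than stress INPUT 10 was left out, with adjusted p up to 0.15.

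Among the lower genes after stress, Spry1 had a log2 ratio of −2.05 (SE 0.21), Dusp4 of −1.55 (SE 0.21), Dusp1 of −1.01 (SE 0.14), Spred2 of −0.75 (SE 0.09) and Dusp6 of −0.48 (SE 0.07). For Dusp6 the direction turned to 0.15 with median-ratio scaling and 0.04 with quantile normalization, and Spred2 kept its direction but not its call under both. Whether the ratios differed between naïve and stressed mice was not tested, since that difference contains the contrast that chose the genes.

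The stress effect in IP is the contrast in which Spry2 was seen to fall, and its values are given as a description. Spry2 had 60.6, 77.2, 69.1 and 83.7 CPM in the stress IP libraries 4, 5, 6 and 15, against 106 to 130 CPM in naïve IP. The highest stress library was thus below the lowest naïve one, a log2 fold change of −0.67 (SE 0.10) or −37.2%. Leaving out any one library gave −0.74 to −0.59.

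Spry4 had 19.5, 21.3, 20.5 and 21.2 CPM in stress IP, all below the 22.6 CPM of the lowest naïve IP library, with a log2 fold change of −0.34 (SE 0.09). Spry1, the scarce member of the family, had 2.10, 3.30, 1.60 and 2.61 CPM and overlapped with naïve IP, with a log2 fold change of −0.57 (SE 0.24). Spred2 had 43.0, 38.1, 42.0 and 49.5 CPM, and its highest stress library was just under the lowest naïve one at 49.7 CPM, with a log2 fold change of −0.26 (SE 0.08). The values of these 4 genes were all lower on average, and those of Spry2, Spry4 and Spred2 without overlap.

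The other 6 genes overlapped between stress IP and naïve IP. Spred1 had 588, 492, 514 and 495 CPM in stress IP, a log2 fold change of −0.03 (SE 0.07), so the 2 Spred genes lay apart. Dusp1 had a log2 fold change of −0.03 (SE 0.14), Dusp4 of −0.22 (SE 0.22) and Dusp6 of 0.10 (SE 0.09). Of the 10 genes Dusp6 was the only 1 above 0, where 48.9% of all genes were. Nothing is read from this count either, in the contrast that chose the genes. Etv4 had a log2 fold change of −0.09 (SE 0.11) and Etv5 of −0.06 (SE 0.07). The 4 stress IP libraries were close to each other for Dusp6, at 72.6, 74.3, 74.4 and 74.7 CPM, and for Etv5, at 123, 122, 123 and 122 CPM (coefficients of variation 1.28% and 0.217%), which was singled out after the values were seen.

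In counts, 3 of the 10 genes were lower without overlap in stress IP and 0 higher, while over all genes the shares were 2.62% lower and 2.38% higher. Past an adjusted p of 0.05 there was 1 lower, Spry2, and 0 higher, with shares over all genes of 0.224% and 0.216%. Nothing is read from these counts, because the genes were chosen on the fall of Spry2 in this contrast and Spry2 enters both counts. The median log2 fold change was −0.16 over the 10 genes and −0.00 over all genes tested.

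Some values of the libraries moved beside these. Naïve IP library 11 was the lowest of its group for 7 of the 10 genes and library 13 the highest for 8, and without library 11 the log2 fold changes were −0.71 for Spry2, −0.41 for Spry4 and −0.26 for Spred2. The summed CPM of the neuronal markers ranged from 439 to 571 in naïve IP and from 361 to 515 in stress IP, and 6 of 7 were below 0 on the log2 scale. For endothelial and mural markers the sum ranged from 160 to 217 in naïve IP and from 135 to 168 in stress IP, and for astrocyte markers from 91824 to 96075 and from 88492 to 100080. Oligodendrocyte markers summed to 241 to 327 and 244 to 348 CPM, and microglial markers to 21.7 to 27.0 and 19.6 to 34.4 CPM. No marker gene was at 0 throughout, and the part of these cell types in the lower Spry2 value was not tested.

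**Figure D3:**
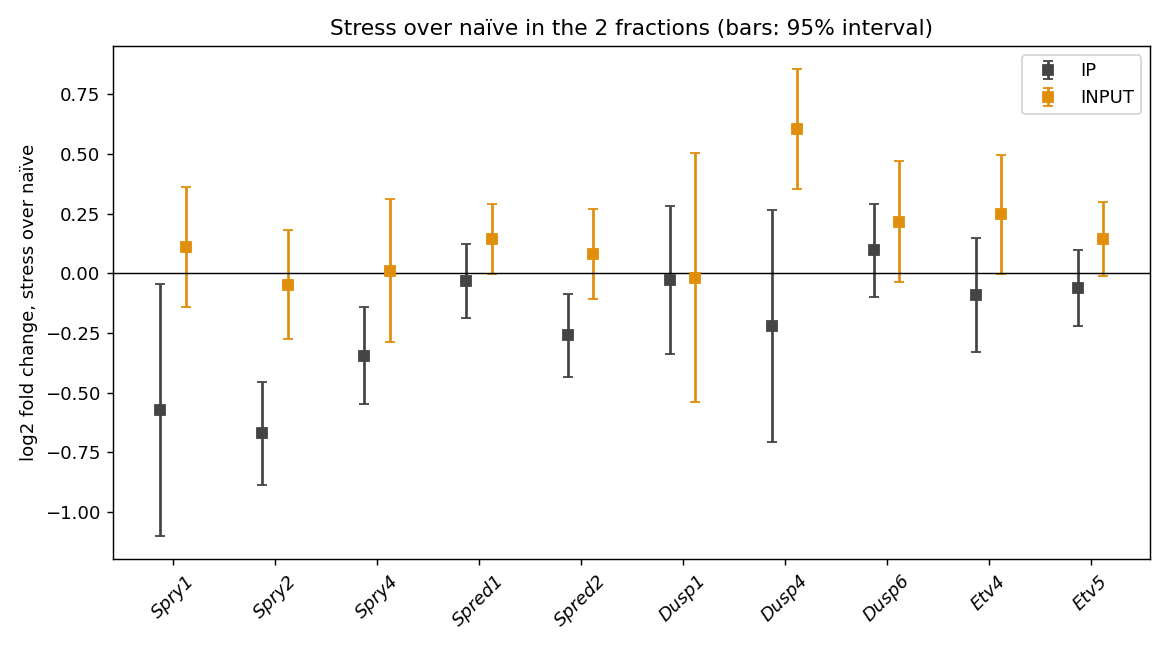
Log2 fold change of stress over naïve (y axis) for the 10 genes in IP and in INPUT, with squares for the estimate from 4 against 4 libraries and bars for the 95% interval. In IP the Sprouty genes and Spred2 lay below 0, Spry2 at −0.67, and in INPUT Dusp4 stood highest at 0.60 while Spry2 was at −0.05.

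The stress effect in INPUT was not used to choose the genes and was tested. With limma 0 of the 10 genes passed an adjusted p of 0.05 in either direction. Over the 13577 genes tested 0.0368% were called higher and 0.00737% lower, so few calls were made at all. At an unadjusted p under 0.05 there was 1 of the 10 genes, Dusp4, and 683 of all genes.

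Dusp4 had 11.9, 12.5, 10.7 and 14.1 CPM in the stress INPUT libraries 1, 9, 10 and 12, against 7.12, 9.01, 7.63 and 8.49 CPM in naïve INPUT. All 4 stress libraries were above all 4 naïve ones. The log2 fold change was 0.60 (SE 0.12, 95% interval 0.35 to 0.85), with a limma adjusted p of 0.11 and a two-sided exact permutation p of 0.029, the smallest that 4 against 4 libraries can give. Among the alternatives run, Dusp4 passed the adjusted threshold only when libraries were weighted by their quality (limma array weights, adjusted p = 0.031), and with single libraries left out the adjusted p ranged from 0.11 to 0.49. It was the 1 gene of 10 without overlap, where 1.43% of all genes were higher and 1.44% lower without overlap. In IP the same gene, at 3.21, 5.62, 2.97 and 5.38 CPM after stress, overlapped with naïve IP.

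Spry2 in INPUT had 58.3, 60.7, 58.0 and 51.5 CPM after stress, inside the naïve range of 47.9 to 70.0 CPM. Its log2 fold change was −0.05 (SE 0.11), with a 95% interval of −0.27 to 0.18 and a limma adjusted p of 0.99. Spry4 in INPUT had 14.3, 13.8, 13.2 and 11.5 CPM, a log2 fold change of 0.01 (95% interval −0.29 to 0.31), and Spry1 had 11.7, 10.1, 9.59 and 8.50 CPM, a log2 fold change of 0.11 (95% interval −0.14 to 0.36). Both overlapped with naïve INPUT.

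The remaining genes also overlapped. Stress over naïve INPUT gave a log2 fold change of 0.14 for Spred1 (95% interval −0.00 to 0.29), 0.08 for Spred2 (−0.11 to 0.27), 0.22 for Dusp6 (−0.04 to 0.47), 0.25 for Etv4 (−0.00 to 0.50) and 0.14 for Etv5 (−0.01 to 0.30). Dusp1 was the least precise, at −0.02 (95% interval −0.54 to 0.50), because its naïve INPUT libraries ran from 10.2 to 26.7 CPM. The median over the 10 genes was 0.13 and over all genes −0.00, with 8 of the 10 genes above 0 against 48.8% of all genes. In naïve INPUT the genes varied together by library: library 7 was the highest for 8 of them and library 16 for the other 2, while library 3 was the lowest for 6 and library 14 for 4.

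The difference of the stress effects, IP minus INPUT on the log2 scale, is also only described. It was −0.62 for Spry2 (SE 0.16), −0.36 for Spry4 (SE 0.18) and −0.68 for Spry1 (SE 0.28). The value for Dusp4 was −0.82 (SE 0.26), from a lower mean in IP and a higher one in INPUT. For Dusp1 it was −0.01, the smallest of the 10 in size. All 10 were below 0, and the median over 13341 genes was −0.005. Nothing is read from this count. The difference contains the contrast that chose the genes, and in naïve INPUT the genes varied together by library.

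Other genes of the pathway were counted by role, first in naïve IP over naïve INPUT. Of 7 FGF receptors and co-receptors 5 could be tested and 4 were higher, with a mean of 1218 ± 48.2 CPM for Fgfr3 in IP (SD, n = 4) against 104 ± 1.81 CPM, which gave a log2 ratio of 3.54. Fgfr1 had a log2 ratio of 3.06, Fgfr2 of 2.48 and the decoy-like receptor Fgfrl1 of 2.90, each with no overlap between the fractions. Fgfr4 did not reach the level needed for testing. All 4 ratios were above that of Etv4, the highest of the feedback genes at 2.25.

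Of 18 FGF ligands 6 could be tested, 2 higher and 4 lower. Fgf1, at 87.8 ± 4.16 CPM in naïve INPUT, reached 696 ± 56.3 CPM in naïve IP, a log2 ratio of 2.98. Fgf2, the other ligand on the higher side, had a log2 ratio of 2.30. Fgf9 (−3.80), Fgf10 (−3.53) and Fgf5 (−3.40) were lower in IP. Fgf10 and Fgf5 averaged 0.303 and 0.280 CPM in naïve IP and were tested only through their INPUT levels of 4.47 and 3.71 CPM, so the size of their ratios depends on the 0.1 CPM added before the log2.

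Of the 20 genes of the cascade between receptor and ERK, 4 were higher and 14 lower, with a median log2 ratio of −0.45. The adaptor gene Frs3 (−2.55), the scaffold gene Ksr2 (−2.45) and Hras (−2.40) were among the lower ones.

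Of 17 other negative regulators tested 6 were higher and 11 lower, with a median log2 ratio of −1.35. The phosphatase genes Dusp14 (−4.21), Dusp7 (−3.30) and Dusp8 (−3.19) and the Ras GTPase-activating gene Rasal1 (−3.87) were the furthest down. Among 19 other ERK-responsive genes 1 was higher and 17 were lower, with a median of −2.30. Egr1 (−4.05), Fosb (−3.88), Egr4 (−3.86) and Egr3 (−3.83), immediate-early transcription factors, had the largest ratios. Fosb averaged 0.765 CPM in naïve IP and was tested only through its INPUT level of 12.4 CPM. Egr4 averaged 1.25 CPM in naïve IP, so the size of these ratios depends in part on the 0.1 CPM added before the log2. Against these lists the median log2 ratio of the 10 feedback genes was −0.01, and that of all genes −0.64.

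**Figure D4:**
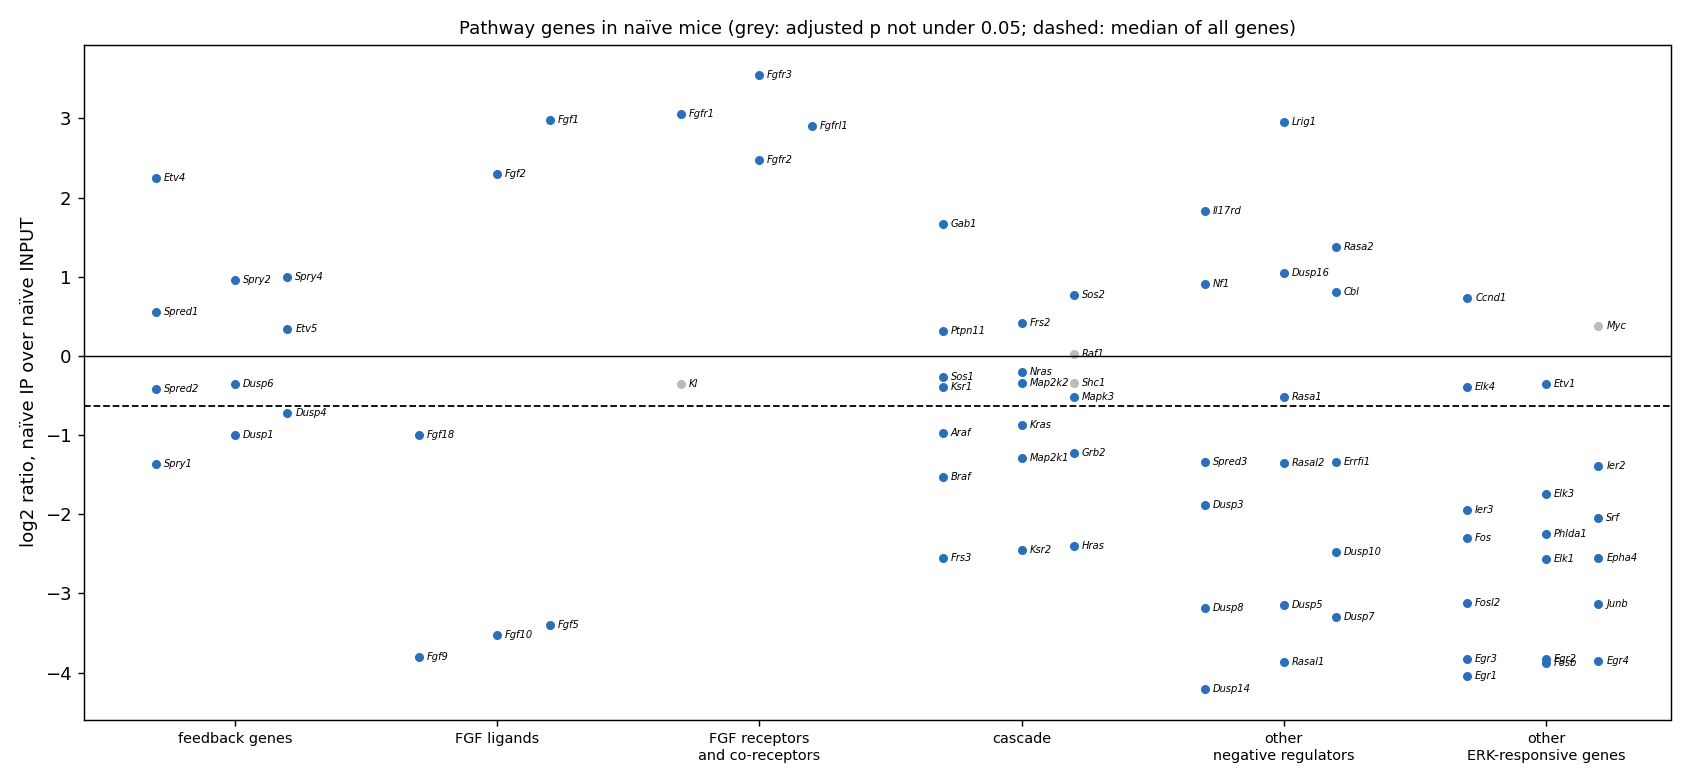
Log2 ratio of naïve IP over naïve INPUT (y axis) for the 10 feedback genes and for the tested genes of 5 pathway lists (1 gene of the cascade is not shown), 1 point per gene with its symbol, blue where the limma adjusted p was under 0.05 and grey otherwise, with a dashed line at the median of all genes (−0.64). The 4 FGF receptors passing the test lay above all feedback genes, and most ERK-responsive genes lay below all of them.

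In INPUT 1 gene of the 5 lists was called, Fosb, a subunit of the AP-1 factor, at 27.0 ± 2.40 CPM after stress and 12.4 ± 1.80 CPM in naïve mice (n = 4). Its log2 fold change was 1.13 (SE 0.11, limma adjusted p = 0.0018), with no overlap. Without passing the test, Dusp5, another phosphatase gene, averaged 14.1 ± 2.20 CPM in stress INPUT, against 7.54 ± 1.99 CPM in naïve mice, a log2 fold change of 0.93 (limma adjusted p = 0.11), and Errfi1, an inhibitor of EGF receptor signalling, averaged 58.8 ± 4.25 against 43.1 ± 4.10 CPM, a log2 fold change of 0.45 (limma adjusted p = 0.084). Both had no overlap, as had Fos (1.14), Egr2 (1.20) and Egr4 (0.60) on the higher side and Fgf10 (−0.45) on the lower. These were named after their values were seen. Errfi1 was also higher without overlap in IP, at 29.9 ± 3.56 CPM after stress and 17.3 ± 4.86 CPM in naïve mice, a log2 fold change of 0.82. Lower without overlap in IP were Ksr2 (−0.45), Il17rd (−0.43), Dusp16 (−0.24), Ier2 (−0.56, at 1.14 CPM after stress) and Phlda1 (−0.55, at 0.822 CPM). These too were named after their values were seen. Over all genes, 2.38% were higher and 2.62% lower without overlap in IP. In IP 0 genes of the lists were past the threshold, in the contrast that chose the feedback genes. Fgfr1, Fgfr2, Fgfr3 and Fgfrl1 had log2 fold changes of −0.08, 0.12, −0.08 and −0.06 in IP and of 0.04, −0.09, −0.09 and −0.07 in INPUT, with overlapping libraries throughout. The median log2 fold change of the other negative regulators was −0.09 in IP and 0.00 in INPUT, and that of the ERK-responsive genes −0.08 and 0.11.

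Over all 16 libraries, the genes whose profile lay nearest to that of Spry2 were ranked by the root mean square difference of centred log2 values among 13340 genes. Foxn2, a forkhead transcription factor gene, came first at 0.15, followed by Bcl9l, a coactivator gene of Wnt signalling, at 0.16. Spry4 ranked 3 at 0.18, ahead of the ephrin receptor gene Ephb3 at 0.19 and Sufu, a regulator of Hedgehog signalling, at 0.19. Ephb3 averaged 58.2 ± 9.85 CPM in naïve IP, 32.6 ± 5.13 CPM in stress IP, 32.8 ± 3.36 CPM in naïve INPUT and 30.1 ± 3.18 CPM in stress INPUT. Of the other feedback genes Spred1 ranked 538 and Spry1, at 1.20, ranked 9780. The ranking uses the libraries that chose Spry2 and is a description.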

How the data were processed

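RNA of 16 libraries was sequenced by the authors, aligned to mm10 with STAR, and uniquely mapped reads were counted per RefSeq gene with HTSeq. The authors deposited log2 CPM for 24060 genes per library, scaled to each library's own total, with a floor of −6.40 for 0 reads and no scaling between libraries. With the floor removed, 100% of values were whole reads within 0.1 reads. Strand use in counting is not given in the sources used here, so antisense overlap (Spry1 has an antisense neighbour) cannot be separated.

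Tests between groups of 4 libraries used limma (version 3.58.1, R 4.3.3; eBayes with a variance trend). Values were log2(CPM + 0.1), a gene needed an average over 1 CPM across the 8 libraries, and p-values were adjusted by Benjamini-Hochberg over all genes tested, with a threshold of 0.05. Fold changes are on that scale. Exact permutation tests were two-sided over 70 labelings. The fit was tested on simulated reads with 200 genes changed 2-fold, of which 200 were recovered with 15 false calls for the INPUT stress comparison (13593 genes). Smaller changes, such as the 1.52-fold one of Dusp4, were not simulated. Among the feedback genes and the tested genes of the pathway lists, 2 log2 fold changes of stress over naïve INPUT above 1 did not pass the threshold. They were those of Fos (1.14, limma adjusted p = 0.40) and Egr2 (1.20, limma adjusted p = 0.40). Recovery was not tested separately for genes that vary much between libraries. Exon lengths came from GENCODE M21, where Dusp1 has a transcript that extends far upstream and may inflate its length. Promoters came from RefSeq, and the scripts used Python 3.11.15.

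The members and lists were chosen with earlier results of these data known. The genes named were the 10 members, the FGF receptors, up to 4 called genes of largest change per pathway list and comparison, the 5 genes nearest to Spry2, and the markers Aldh1l1, Rbfox3 and Pdgfra, and 1 gene of the cascade list that this rule names is not reported here. The labels put 1 month and the study's methods a shorter interval between tamoxifen and stress. Tissue of each animal was homogenized separately, so p-values of stress against naïve within a fraction measure the spread between mice. IP and INPUT came from the same mice, but the fits treated them as independent. The p-values of IP over INPUT and the SE of the IP minus INPUT difference therefore ignore that pairing. Reads after PCR are not independent molecules. Alternatives were other pseudocounts, filters, scalings, weights, models, Xist as a covariate, limma-voom on recovered reads, and each library left out.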

Additional observations from a re-analysis of the deposited data

Results flagged for a closer look

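Of 40 groups of 4 libraries (10 genes in 4 groups), 1 held a library far from the other 3. Etv4 in stress INPUT library 1 was at 13.8 CPM, and the other 3 libraries lay between 11.4 and 11.7 CPM. The gap was 0.883 of the range of the group. Chance marks about 1 group in 20.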

How the results depend on the processing

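In stress against naïve INPUT, the count of genes past the threshold was 0 and became 1 with array weights (Dusp4). Log2 fold changes near 0 changed sign there: Spry4 was −0.085 with array weights and −0.10 to 0.12 with single libraries left out, Spry2 ranged from −0.15 to 0.036 and Dusp1 from −0.32 to 0.14. In stress against naïve IP the count past the threshold was 1, became 0 without the variance trend, and ranged from 0 to 1 with single libraries left out (0 without naïve IP library 2 or 13 or stress IP library 6). That count rests on Spry2, on which the genes were chosen in this contrast, so it says nothing of stability. In naïve IP against naïve INPUT, the count of 10 became 6 with quantile normalization, where Spred2 was 0.12, Dusp4 0.085 and Dusp6 0.17, and with median-ratio scaling Spred2 was 0.23 and Dusp6 0.28. In stress IP against stress INPUT, Dusp6 was 0.15 with median-ratio scaling and 0.045 with quantile normalization. With a filter at 5 CPM, Spry1 and Dusp4 were not tested in IP. No paired analysis was possible because the groups share no replicate numbers in the labels. With 4 libraries a group, low genes such as Spry1 were limited by both counting and spread.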
